A study of Homo sapiens with 6 samples.

Results

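The genes described here build the nuclear lamina and the LINC complex. They are TMEM201, LMNA, LMNB1, LMNB2, EMD, LBR, SUN1, SUN2, SYNE1 and SYNE2, 10 of the 19775 genes that were measured by at least 1 single-gene probe set. Every probe set annotated to exactly 1 of these genes was taken, which gave 27 of 54613 probe sets: 2 for TMEM201, 6 for LMNA, 4 for SUN1, 5 each for SYNE1 and SYNE2, and 1 for each of the others. A further probe set is annotated to both SUN1 and GET4 and was left unnamed. The genes were chosen by name for their place in 1 structure, with earlier intensities of these 6 arrays known, in which TMEM201 stood among the largest rises. The values of all 10 genes in the comparison of CTCF with empty vector are therefore a description with no test.

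The nuclear lamina is a meshwork of lamin filaments under the inner nuclear membrane, which anchors chromatin and gives the nucleus its stiffness. Lamins A and C come from LMNA by alternative splicing, lamin B1 from LMNB1 and lamin B2 from LMNB2. EMD (emerin) and LBR (lamin B receptor) are inner membrane proteins that tie chromatin to the lamina. SUN1 and SUN2 cross the inner membrane and bind, in the space between the membranes, the nesprins SYNE1 and SYNE2 of the outer membrane, so that the LINC complex connects the lamina with the cytoskeleton. TMEM201, also called Samp1, is an inner membrane protein associated with this complex. Chromatin contacts the lamina in large domains, and CTCF binding sites are often found at the borders of these domains. Blood cells generally hold little lamin A and much LBR and lamin B1.

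Expression was measured in K562, a human chronic myeloid leukemia line with erythroid and megakaryocytic features, on Affymetrix Human Genome U133 Plus 2.0 arrays. 4 arrays came from KCTCF-D11 cells, K562 stably transfected with the pCDNA-CTCF expression vector, and 2 from KpCDNA cells, K562 stably transfected with the empty pCDNA vector. Neither received any further treatment, and the same medium served both. All CTCF arrays share 1 transfectant (KCTCF-D11), whose own traits and the action of CTCF cannot be told apart. The labels do not say whether the arrays of a group came from separate cultures, so the spread between them may be technical. CTCF itself (202521_at) had intensities of 1311, 1614, 1332 and 1332 in CTCF arrays 1 to 4, against 457 and 634 in empty vector arrays 1 and 2.

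The arrays formed a smaller set, CTCF array 4 and empty vector array 1, and a larger set, CTCF arrays 1, 2 and 3 and empty vector array 2. The sets were read from spike-in controls of bacteria and phage, and each holds both groups. The 3' minus 5' difference of the ACTB controls, a sign of RNA or labelling quality, was 0.22 to 0.28 on the log2 scale in the larger set and 0.81 and 0.91 in the smaller set. The same difference of the GAPDH controls was -0.15 to -0.11 in the larger set and -0.12 in both arrays of the smaller set. Between pairs of arrays, the Pearson correlation of log2 intensities, taken across probe sets that are no independent replicates, was 0.966 to 0.991 within a set and 0.877 to 0.907 between sets. Log2 changes below are coefficients ± SE of limma, CTCF over empty vector, on log2(intensity + 16) with the array set as a block, and all log2 changes understate those of dim probe sets. The number of arrays limits the precision. Of 6 measured erythroid markers of K562, each read by its probe set with the highest mean, 6 lay above the array median on every array. Their summed intensity was 25329 to 31259.9 in the CTCF arrays and 18658 to 19938 in the empty vector arrays. Most of this sum came from HBE1, TFRC and HBZ, while TAL1 and KLF1 overlapped between the groups. TAL1 had a call in 1 of its 4 probe sets, but not in that with the highest mean. By the probe set with the highest mean, HBZ, the embryonic zeta-globin, was the 1 of the 6 that passed. HBZ had 6433 to 7672 in the CTCF arrays, 1929 and 2591 in the empty vector arrays and a log2 change of 1.58 ± 0.13 (adjusted p = 0.0166 in limma). Its call held without CTCF array 1 and ended without each of the other arrays, where few or no calls remained among all probe sets. It also ended without the array set block (adjusted p = 0.128 in limma). GATA1, an erythroid transcription factor, was at 1012 to 1228 in the CTCF arrays and at 1311 and 1314 in the empty vector arrays, with a log2 change of -0.25 ± 0.13 (adjusted p = 0.407). The summed intensity of 7 markers of lymphocytes, epithelium, fibroblasts and endothelium was 2296 to 8445 in the CTCF arrays and 1994 to 8654 in the empty vector arrays. Its highest values, 8445 in CTCF array 4 and 8654 in empty vector array 1, came from 1 of 5 COL3A1 probe sets, and without that gene the sums were 2131 to 2515 in the CTCF arrays and 1848 to 2027 in the empty vector arrays. Most of the sum without COL3A1 came from EPCAM, an epithelial adhesion protein, at 1660 to 2139 in the CTCF arrays and at 1307 and 1410 in the empty vector arrays (log2 change 0.40 ± 0.15, adjusted p = 0.236). CDH1, the other epithelial marker, was at 1.01 to 4.92 in the CTCF arrays and at 1.63 and 1.93 in the empty vector arrays. What part these markers have in the results was not tested.

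Across the 27 probe sets, 14 had a positive and 13 a negative log2 change. The median change was 0.01, against -0.02 over all 54613 probe sets, and the median absolute change was 0.16, against 0.18 over all. At a Benjamini-Hochberg adjusted p under 0.05 over the whole table, 1 of the 27 was called, a TMEM201 probe set that was higher in the CTCF arrays. Over all probe sets 1017 were called, or 1.86%, of which 294 were higher (0.538%) and 723 lower (1.32%). After quantile normalization 1200 were called, 508 higher and 692 lower. Without the array set block 0 of the 27 and 6 of all probe sets (0.011%) were called in limma, and 3 of the 27 and 3729 of all had an unadjusted p under 0.05. Of all probe sets, 762 were called when CTCF array 1 was omitted, 8 when CTCF array 3 was, and 0 for CTCF arrays 2 and 4 and either empty vector array, where 4695 to 7887 had an unadjusted p under 0.05. In 5 of the 27 every CTCF array lay on the same side of both empty vector arrays, 2 higher and 3 lower. Over all probe sets 13.2% did so, 6.06% higher and 7.18% lower, and nothing is read from these counts because the contrast was known when the genes were listed. The sign within the larger set matched that within the smaller set for 18 of the 27.

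TMEM201 showed the largest change of the 10 genes, and its probe sets moved apart. The brighter one (227617_at) had intensities of 451, 651, 591 and 308 in CTCF arrays 1 to 4, against 65.2 and 132 in empty vector arrays 1 and 2. All 4 CTCF arrays lay above both empty vector arrays, and within the smaller set CTCF array 4 lay above empty vector array 1 by as much, on the log2 scale, as the CTCF arrays of the larger set lay above empty vector array 2. The means were 500.2 ± 153 in the CTCF arrays (SD, n = 4) and 98.8 ± 47.5 in the empty vector arrays (SD, n = 2). The log2 change was 1.97 ± 0.18, a 3.92-fold difference. Within the larger and smaller sets it was 1.95 and 2.00, and without the block 2.18 ± 0.39. With 1 array left out it was 1.91 to 2.06, and of these fits it passed the threshold in that without CTCF array 1. These values are those of a gene known beforehand for its size of change, and nothing is read from its call. TMEM201 (227617_at) is also the single probe set of the 10 genes that the authors' deposited table holds among its 768 entries, which make up 1.41% of those tested here. That table gives it means of 500.5 in the CTCF cells and 100.1 in the empty vector cells, a fold change of 5.00 and bounds of 2.86 and 12.8.

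The other TMEM201 probe set (228671_at) ran the opposite way. Its intensities were 74.2, 106, 67.4 and 211 in CTCF arrays 1 to 4, against 244 and 214 in empty vector arrays 1 and 2. The 3 CTCF arrays of the larger set were far below both empty vector arrays, whereas CTCF array 4 lay just below the dimmer of them. The log2 change was -0.82 ± 0.28 and did not pass the threshold, with -1.24 within the larger set and -0.20 within the smaller set. The files do not say which part of the transcript or which isoform each probe set reads, so the direction for the gene rests on the probe set chosen.

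**Figure D1:**
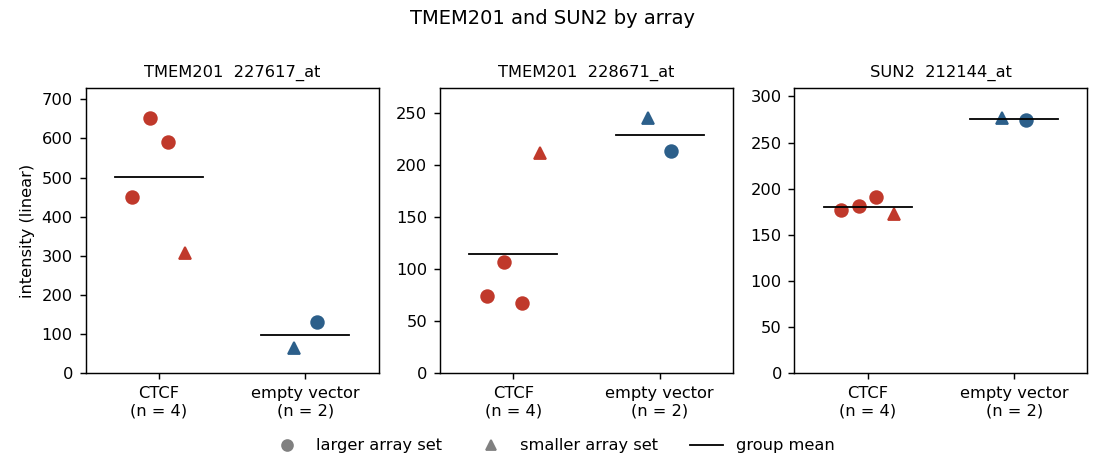
Intensity on a linear scale (y axis) of both TMEM201 probe sets and of the SUN2 probe set in 4 CTCF arrays and 2 empty vector arrays. Circles are arrays of the larger set, triangles those of the smaller set, and lines are group means; TMEM201 227617_at lies at 308 to 651 in the CTCF arrays and at 65.2 and 132 in the empty vector arrays, and SUN2 at 172 to 192 and at 274 and 276.

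SUN2, the LINC complex protein of the inner membrane that is measured by 1 probe set (212144_at), was lower in the CTCF cells by a small and even amount. Its intensities were 177, 181, 192 and 172 in CTCF arrays 1 to 4, against 276 and 274 in empty vector arrays 1 and 2. All CTCF arrays lay below both empty vector arrays, with means of 181 ± 8.18 (SD, n = 4) and 275 ± 1.41 (SD, n = 2). The log2 change was -0.58 ± 0.11, a 1.49-fold lower intensity, and did not pass the threshold. It was -0.54 within the larger set and -0.63 within the smaller set, and its array set difference was 0.05 ± 0.11. SUN2 passed in 2 of 15 alternative fits. In these, 64 in place of 16 was added to each intensity (log2 change -0.48), or probe sets with a mean below the median were left out (-0.58). It did not pass in the others, among them quantile normalization, median centring and no array set block. Nothing is read from these calls.

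The 250 bases before the RefSeq start of TMEM201, and before the farthest upstream of 3 RefSeq starts of SUN2, are shown because CTCF is the factor that was overexpressed. Windows of the same length before all 35116 annotated starts served as background. Both sequences are from GRCh38.p14, written 5' to 3' on the strand of the gene, with matches on either strand to the GC box (GGGCGG), the CCAAT box (CCAAT) and CCCTC, the letters from which CTCF has its name, in capitals.
TMEM201, chr1:9588661-9588910, plus strand: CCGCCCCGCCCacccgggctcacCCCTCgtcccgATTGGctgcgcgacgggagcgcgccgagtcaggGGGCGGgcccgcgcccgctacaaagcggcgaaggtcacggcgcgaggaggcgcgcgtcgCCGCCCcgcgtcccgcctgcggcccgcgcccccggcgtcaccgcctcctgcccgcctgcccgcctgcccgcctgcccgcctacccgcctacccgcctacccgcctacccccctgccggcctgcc
SUN2, chr22:38755999-38756248, minus strand: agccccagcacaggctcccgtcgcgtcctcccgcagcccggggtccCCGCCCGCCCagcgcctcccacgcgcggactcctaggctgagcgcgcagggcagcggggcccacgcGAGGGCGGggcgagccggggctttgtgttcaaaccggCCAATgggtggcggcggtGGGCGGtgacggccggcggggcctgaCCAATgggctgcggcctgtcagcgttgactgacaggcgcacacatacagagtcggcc

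The TMEM201 window held 4 GC boxes, the first pair of which overlap, 1 CCAAT box on the opposite strand and 1 CCCTC, and 82.0% of its bases were G or C, against a median of 58.0% over all windows. The SUN2 window held 4 GC boxes, the first pair again overlapping, 2 CCAAT boxes and 1 CCCTC on the opposite strand that overlaps a GC box, with 74.8% G or C. The other SUN2 windows, not shown, held 2 and 4 GC boxes, 0 CCAAT boxes each, and 0 and 2 CCCTC. RefSeq start windows were found for 9 of the 10 genes, 19 windows in all, and CCCTC occurred in 13 of them, against 66.6% of all windows. The GC box also occurred in 13 of the 19, against 42.6% of all, and the CCAAT box in 7 of 19, against 32.0%. A match is a run of letters in the window and says nothing about binding by CTCF.

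The B-type lamins overlapped between the groups and differed between the array sets. LMNB1 (203276_at) had intensities of 2132, 1793, 1612 and 513 in CTCF arrays 1 to 4, against 489.5 and 1526 in empty vector arrays 1 and 2. The low values are those of the smaller set in both groups, and the groups overlap. Its log2 change was 0.18 ± 0.16, with 0.26 within the larger and 0.07 within the smaller set. LMNB2 (216952_s_at) had 539, 649, 578 and 349.8 in the CTCF arrays, against 298 and 537 in the empty vector arrays, and a log2 change of 0.16 ± 0.13. Both groups again had their lowest value in the smaller set.

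LMNA was read by 6 probe sets that did not move together. Of these, 5 lay above the median of every array, and 4 of the 5 had a negative log2 change, from -0.49 to -0.04. The probe set with the highest mean (203411_s_at) had intensities of 894, 1045, 948 and 703 in CTCF arrays 1 to 4, against 777 and 953 in empty vector arrays 1 and 2. These overlap, and its log2 change was -0.05 ± 0.13. A second (1554600_s_at), at 569 to 792 in the CTCF arrays and at 539 and 724 in the empty vector arrays, had 0.05 ± 0.12. The most negative, 214213_x_at, had 358, 547, 472 and 425 in the CTCF arrays, against 782 and 538 in the empty vector arrays. CTCF array 2 lay above empty vector array 2, so the groups overlap, and the log2 change was -0.49 ± 0.23. For 212089_at the log2 change was -0.45 ± 0.22, and its 4 CTCF arrays, at 157 to 265, lay below both empty vector arrays, at 432 and 266, with CTCF array 4 and empty vector array 2 nearly equal. The sixth (244225_x_at) was dim, at 1.80 to 9.42 in the CTCF arrays and at 8.42 and 5.49 in the empty vector arrays. Probe sets ending in _x_at can take up related transcripts and those ending in _s_at several transcripts of a family, so the LMNA values need not all belong to 1 transcript.

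**Figure D2:**
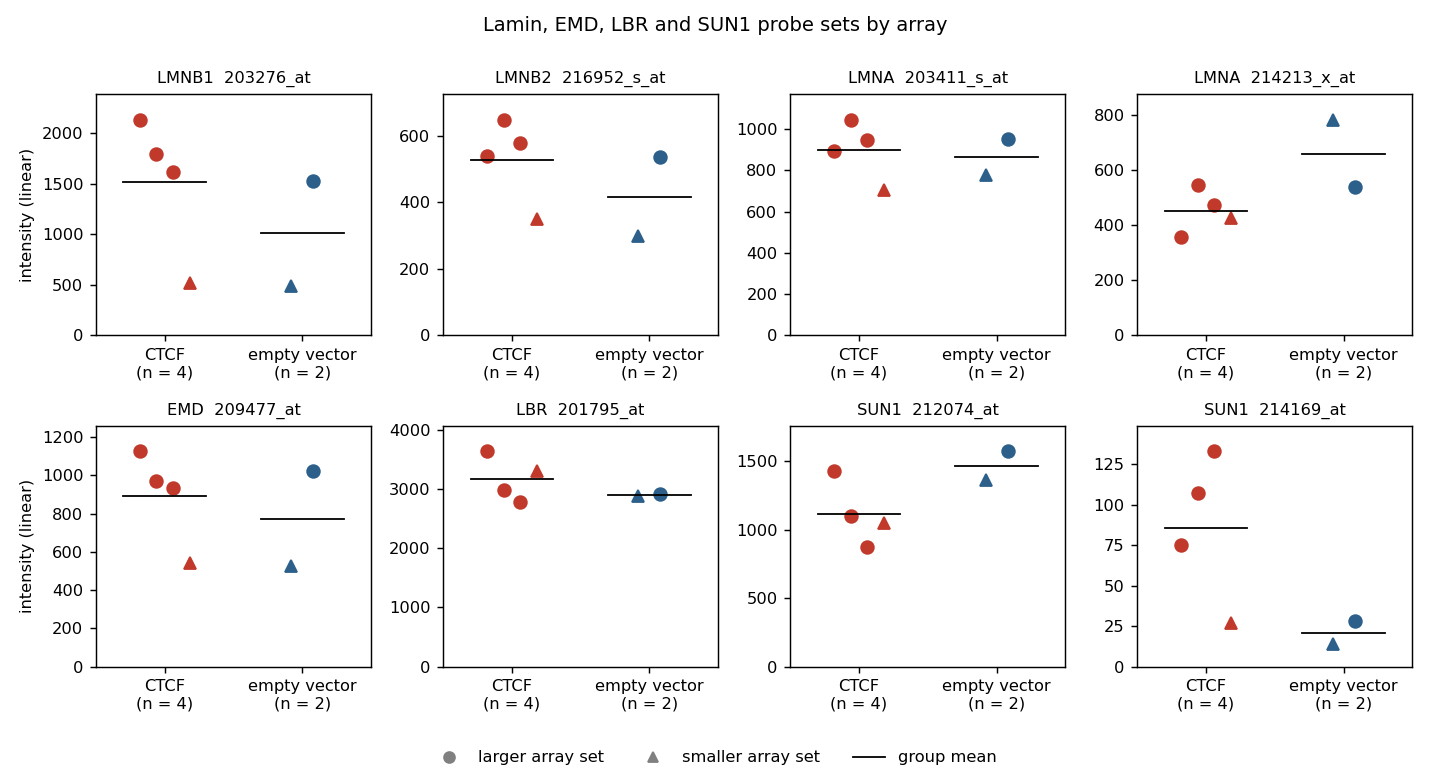
Intensity on a linear scale (y axis) of 8 lamin, EMD, LBR and SUN1 probe sets in 4 CTCF arrays and 2 empty vector arrays. Circles are arrays of the larger set, triangles those of the smaller set, lines group means; LMNB1, LMNB2 and EMD have their lowest value in the smaller set in both groups, while LBR does not.

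EMD and LBR, the inner membrane proteins that hold chromatin at the lamina, overlapped between the groups. EMD (209477_at) had intensities of 1126, 972, 934 and 542 in CTCF arrays 1 to 4, against 524 and 1020.3 in empty vector arrays 1 and 2. The low pair is once more that of the smaller set, and the log2 change was 0.01 ± 0.13. LBR (201795_at), which is also a sterol reductase, had 3640, 2981, 2781 and 3316 in the CTCF arrays, against 2893 and 2915 in the empty vector arrays. CTCF array 3 lay below both empty vector arrays and the other CTCF arrays above them, and the log2 change was 0.13 ± 0.15.

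SUN1, the other SUN protein of the LINC complex, was read by 4 probe sets in opposite directions. The brightest (212074_at) had intensities of 1428, 1098, 869.9 and 1046 in CTCF arrays 1 to 4, against 1364 and 1571 in empty vector arrays 1 and 2. Only CTCF array 1 reached the range of the empty vector arrays, and the log2 change was -0.45 ± 0.21. A dim one (214169_at) had 75.3, 107, 132.9 and 27.1 in the CTCF arrays, against 14.1 and 27.9 in the empty vector arrays. CTCF array 4 lay between the empty vector arrays and the other CTCF arrays far above, and the log2 change was 1.07 ± 0.28, with 1.44 within the larger and 0.52 within the smaller set. The remaining SUN1 probe sets had log2 changes of 0.46 ± 0.18 (230210_at, 23.6 to 57.1 in the CTCF arrays and 11.7 and 31.5 in the empty vector arrays) and -0.08 ± 0.20 (206487_at, 13.5 to 44.4 in the CTCF arrays and 9.82 and 48.8 in the empty vector arrays). None of the 4 passed the threshold. The probe set shared by SUN1 and GET4 (223811_s_at) had 558, 684, 537 and 209.8 in the CTCF arrays, against 40.8 and 384 in the empty vector arrays, and which gene it reads cannot be told.

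SYNE1 and SYNE2, the giant nesprins of the outer membrane, were dim on nearly every array. Of 60 intensities from their 10 probe sets, 56 were at most 20, with array medians of 28.8 to 34.2 over all probe sets. SYNE2 ranged from 2.00 to 17.9 over its 5 probe sets, below the array median on every array. For SYNE2 240777_at every CTCF array, at 4.50 to 17.9, lay above the empty vector arrays, at 3.38 and 3.96, and the log2 change was 0.37 ± 0.18. The 4 intensities above 20 all came from SYNE1 in the smaller set. SYNE1 244144_at had 76.1 in CTCF array 4 and 53.8 in empty vector array 1, with the other arrays at 1.00 to 2.72, and 215350_at had 36.2 and 21.3 in those arrays and 1.00 to 3.12 in the others. In 7 cases a nesprin intensity is given as exactly 1.00, a value shared by 3.79% of the table. The log2 changes of the 5 SYNE1 probe sets were -0.13 to 0.29 and those of the 5 SYNE2 probe sets -0.13 to 0.37, and 0 of the 10 passed the threshold.

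**Figure D3:**
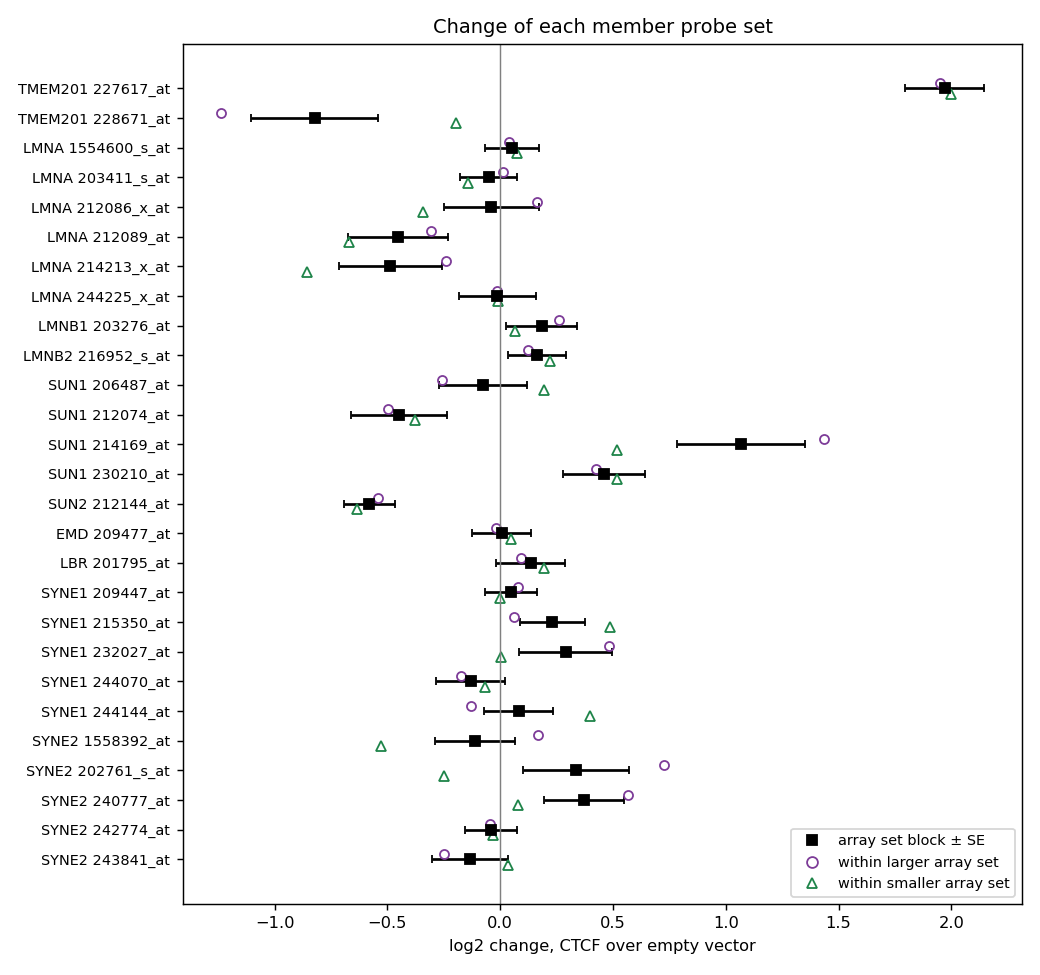
Log2 change, CTCF over empty vector (x axis), of each of the 27 probe sets (y axis, by gene). Squares with bars are the limma coefficients with the array set block ± SE, circles the change within the larger array set and triangles that within the smaller set; TMEM201 227617_at stands at 1.97 and the other TMEM201 probe set at -0.82.

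The difference between the array sets was not used to choose the genes and comes from the same fit. The sets themselves were known from earlier results of these data. LMNB1, LMNB2, EMD, LMNA 1554600_s_at and 3 SUN1 probe sets were higher in the larger set, and a pair of SYNE1 probe sets was lower. LMNA 1554600_s_at had a log2 difference of 0.39 ± 0.12 (adjusted p = 0.0452 in limma). The LMNA probe set with the highest mean, 203411_s_at, had 0.38 ± 0.13 (adjusted p = 0.0577). In limma, 10 of the 27 probe sets passed an adjusted p of 0.05, 8 higher and 2 lower in the larger set, beside 40.9% of all probe sets, 23.4% higher and 17.5% lower. The 10 of 27 lie near the share of all probe sets, so a difference between the sets is nothing particular to these genes. LMNB1 was 3.31-fold higher in the larger set (log2 difference 1.73 ± 0.16, adjusted p = 0.000663), EMD 1.87-fold (0.90 ± 0.13, adjusted p = 0.00313) and LMNB2 1.69-fold (0.76 ± 0.13, adjusted p = 0.00558). TMEM201 227617_at was 1.79-fold higher there as well (0.84 ± 0.18, adjusted p = 0.0119), while the other TMEM201 probe set had -0.81 ± 0.28 (adjusted p = 0.0663). SYNE1 244144_at was lower in the larger set (log2 difference -2.22 ± 0.15, adjusted p = 0.000322). LBR and SUN2 had differences of -0.05 ± 0.15 and 0.05 ± 0.11 and did not pass. In 16 of the 27 probe sets the array sets differed by more than the groups did, against 71.4% of all probe sets. The ACTB values given above move with the sets and the GAPDH values do not. The sets also differ in COL3A1 211161_s_at, at 146 to 165 in the larger set and at 6114 and 6627 in the smaller set. A dimmer COL3A1 probe set, 201852_x_at, was at 14.1 to 23.1 in the larger set and at 67.0 and 74.8 in the smaller set. The remaining COL3A1 probe sets were at 8.82 or less on every array. What part the ACTB and COL3A1 values have in the array set differences was not tested.

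**Figure D4:**
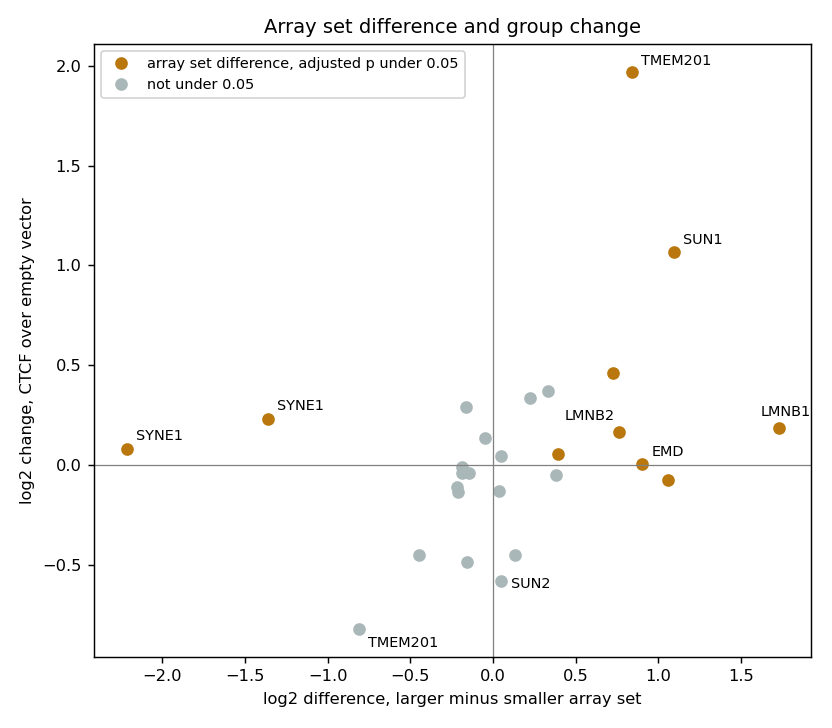
Log2 difference between the array sets, larger minus smaller (x axis), against the log2 change, CTCF over empty vector (y axis), of the 27 probe sets. Orange points passed an adjusted p of 0.05 for the array sets; LMNB1, LMNB2 and EMD lie far right at changes of 0.01 to 0.18 between the groups, and SUN2 lies near 0 on the x axis at -0.58.

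Other genes of the nuclear envelope were followed as 6 lists of 73 genes, of which 72 had a probe set, and the probe set with the highest mean stood for each gene. ZMPSTE24, the protease that cuts prelamin A to mature lamin A, was the 1 gene of the 72 that passed, or 1.39%, against 2.57% of all 19775 genes, and 0.622% in the higher direction, which is that of ZMPSTE24. Its intensities were 2021, 2153, 2022 and 1630.4 in CTCF arrays 1 to 4, against 834 and 1038 in empty vector arrays 1 and 2. All CTCF arrays lay above both empty vector arrays. It rose by 0.97 ± 0.11 on the log2 scale, 1.96-fold (adjusted p = 0.0257), with 0.98 and 0.95 within the larger and smaller sets, and adjusted p = 0.281 without the block. The call held without CTCF array 1 (adjusted p = 0.0476 in limma). It ended without either empty vector array and without each of CTCF arrays 2, 3 and 4, with log2 changes of 0.95 to 0.98. In those fits few or no probe sets of the whole table were called, so the loss says little about ZMPSTE24 itself. The authors' deposited table lists it with a fold change of 2.07. The other enzymes of lamin processing did not pass, with log2 changes of 0.64 for ICMT, a methyltransferase, 0.45 for RCE1, a protease, and -0.36 and -0.64 for FNTA and FNTB, the subunits of farnesyltransferase.

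The nuclear pore complex, whose channels cross the envelope, had 0 calls among 31 genes, while 23 had a positive log2 change, or 74.2%, against 46.9% of all genes. The median was 0.13, against -0.02 over all genes. Of the 31 genes, 30 lay above the median of every array, whereas all genes include dim ones, so the shares are not matched for brightness. Genes read on the same arrays are also not independent, and no joint rise of the pore genes is read from these shares. After quantile normalization 24 of the 31 were positive, against 52.5% of all genes, and after median centring 24, against 54.0%. NUP37, a scaffold subunit and the gene of the list with the highest mean, had a log2 change of -0.03 ± 0.12 (adjusted p = 0.931).

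The remaining lists had 0 calls each. Among 8 other membrane proteins of the envelope, 6 had a negative log2 change, with a median of -0.30, and NEMP1, the one with the highest mean, had intensities of 927 to 1159 in the CTCF arrays and 1249 and 1459 in the empty vector arrays and a log2 change of -0.39 ± 0.15 (adjusted p = 0.253). Of 11 further SUN, KASH and torsin proteins, 6 were positive and 5 negative, with a median of 0.09, and TOR1AIP2, an activator of torsin ATPases, had 0.25 ± 0.13 (adjusted p = 0.391). Of 7 LEM-domain proteins and BAF, 4 were positive and 3 negative, with a median of 0.03, and BANF1, which encodes the chromatin-bridging protein BAF, had 0.31 ± 0.12 (adjusted p = 0.257). The list of heterochromatin tethers and readers also holds histone-modifying enzymes. Of its 10 measured genes, 5 were positive and 5 negative, with a median of 0.03, and CBX3, for the HP1 protein HP1 gamma, had 0.14 ± 0.12 (adjusted p = 0.616).

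3 genes of these lists had a call in a probe set other than the brightest, and they are named here after their values were seen. The share of all genes with such a call is not given here, so nothing is read from their number. CBX5, for HP1 alpha, which binds methylated histone H3 and LBR, had intensities of 758, 681, 561.8 and 631 for 212126_at in CTCF arrays 1 to 4, against 1252 and 1577 in empty vector arrays 1 and 2. It fell by 1.13 on the log2 scale (SE 0.16, adjusted p = 0.041 in limma). The call ended when any 1 of the 6 arrays was left out, with log2 changes of -1.23 to -0.97 and adjusted p = 0.0542 without CTCF array 1. Quantile normalization also ended the call of CBX5 (adjusted p = 0.0594). The brightest of its 6 probe sets (226085_at) had -0.87 ± 0.15 (adjusted p = 0.0541), and the authors' deposited table lists both, with fold changes of -2.15 and -1.93. NUP214 (228902_at), a pore protein of the cytoplasmic side, rose by 1.45 ± 0.16 (adjusted p = 0.0247), and NUP98 (210793_s_at) rose by 1.23 ± 0.19 (adjusted p = 0.0479). For both the call held without CTCF array 1 (adjusted p = 0.0451 and 0.0419 in limma). It ended without either empty vector array and without each of CTCF arrays 2, 3 and 4. Log2 changes there were 1.29 to 1.56 for NUP214 and 1.17 to 1.32 for NUP98. In those fits few or no probe sets of the whole table were called, so a call lost there says little about the single gene. The calls of CBX5, NUP214 and NUP98 also ended without the array set block (adjusted p = 0.276, 0.516 and 0.390), and those of all 3 and of ZMPSTE24 with a constant of 1 in place of 16 (adjusted p = 0.134 to 0.170). The brightest probe set of NUP214 had a log2 change of -0.21, opposite in sign to the called one, and that of NUP98 had 0.02.

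**Figure D5:**
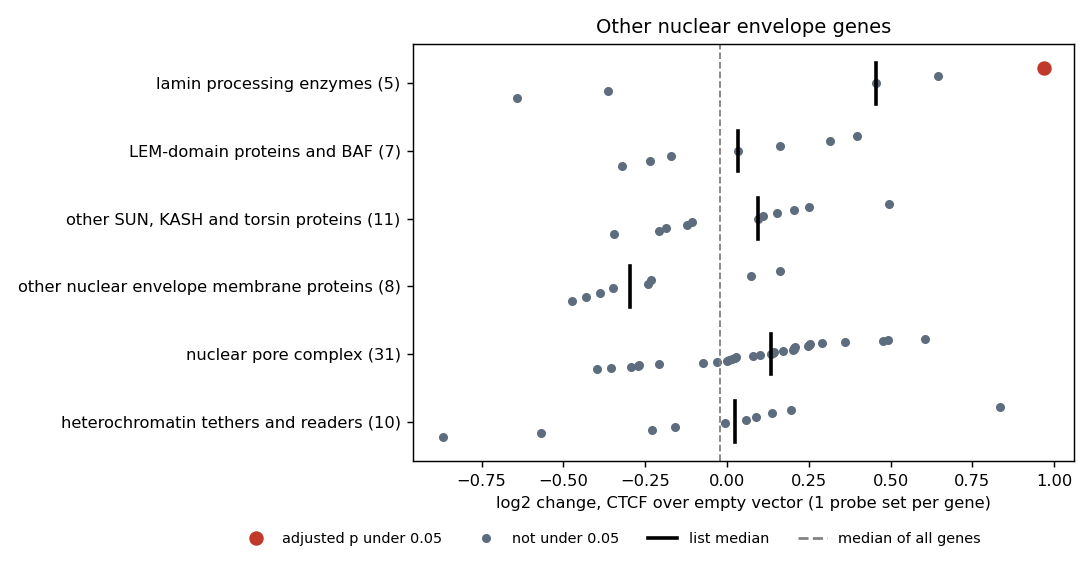
Log2 change, CTCF over empty vector (x axis), of 72 other nuclear envelope genes in 6 lists (y axis, number of genes in brackets), each gene by its probe set with the highest mean. The large red point is ZMPSTE24 at 0.97, the vertical bars are list medians, from -0.30 to 0.45, and the dashed line is the median of all genes at -0.02.

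Of the 5 measured genes on each side of TMEM201 in RefSeq order, 1 of the 10 passed, against 2.57% of all genes, and it was lower in the CTCF arrays, the direction in which 1.95% of all genes passed. CTNNBIP1, an inhibitor of beta-catenin, had intensities of 284, 294, 282 and 298 in CTCF arrays 1 to 4, against 569 and 468 in empty vector arrays 1 and 2. It fell by 0.77 (SE 0.12, adjusted p = 0.0458 in limma). The call ended when any 1 of the 6 arrays was left out, with log2 changes of -0.90 to -0.68 and adjusted p = 0.0656 without CTCF array 1. Without any other array, few or no probe sets of the whole table were called, so the loss there says little about CTNNBIP1 itself. The call also ended without the array set block (adjusted p = 0.307), with a constant of 1 (0.182) and after median centring (0.0529). The direct neighbours SLC25A33 and PIK3CD had log2 changes of 0.49 ± 0.16 (adjusted p = 0.199) and -0.58 ± 0.16 (adjusted p = 0.138).

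Over the 6 arrays, the log2 intensities most like those of TMEM201 227617_at, among 11695 named genes with a mean above the median, were those of PAX8-AS1, BUD23, SETD6, PEBP1 and NUDC. Their Pearson correlations were 0.999, 0.999, 0.997, 0.997 and 0.996, given as a description because the arrays share both the groups and the array sets. PAX8-AS1 had intensities of 474, 561, 559.7 and 373 in CTCF arrays 1 to 4, against 168 and 243 in empty vector arrays 1 and 2, and BUD23 had 1772, 1953, 1892 and 1563, against 916 and 1137. In each of the 5 genes all CTCF arrays lay above both empty vector arrays, as in TMEM201 227617_at. That follows from picking them by their likeness to it and is no separate result. The log2 changes, from 0.47 to 1.08, were smaller than that of TMEM201.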

How the data were processed

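The sample titles gave each array its group and number. For every array, the values deposited by the authors are linear intensities, 1 for each probe set. RNA was labelled with biotin by the 3' IVT method, per the labels' protocols, while how background was corrected, probes were summarised and arrays were normalized is not given in the sources used here. A second table, selected by the authors, gives group means and signed fold changes, used as scores of the authors. Per the file headers, it holds averages weighted by standard error and a selection on the lower bound of the fold change and on the difference of means.

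The deposited intensities were used with no further normalization, as log2(intensity + 16), in limma 3.58.1 (R 4.3.3; lmFit and eBayes, 2-sided), with Benjamini-Hochberg adjustment over the 54613 probe sets that are not among 62 AFFX controls. The fit had the group and the array set, from hierarchical clustering on 45 spike-in probe sets, and left 3 residual degrees of freedom. Its coefficient weighs the larger set with 60% and the smaller with 40%. The method was tested on simulated data. The authors' normalization sets which differences between arrays remain in the intensities.

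Gene names come from the platform annotation at GEO, in which 41091 probe sets name 1 gene, 1801 name more than 1 and 11721 do not appear. An Entrez ID linked 41037 of the first kind to RefSeq. Promoter sequences and the order of genes come from RefSeq (GRCh38.p14). No build is named by the files. The motif CCCTC replaced a longer CTCF consensus that no table given here holds. The change was made after the outcome of the search with the longer one had been seen, which is not given here. Figures were drawn with matplotlib 3.10.9 in Python 3.11.15.

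The 10 genes, the 6 further lists, the array set block and the alternatives were chosen with earlier results of these data known. Genes were named by a rule: the 10 genes, up to 3 called genes per list or the one with the highest mean, called neighbours of TMEM201, the 5 genes most like it, and CTCF. Named outside this rule, after their values were seen, were CBX5, NUP98, NUP214, ICMT, RCE1, FNTA, FNTB and the neighbours SLC25A33 and PIK3CD. So were the markers HBZ, GATA1, TAL1, KLF1, HBE1, TFRC, EPCAM, CDH1 and COL3A1. Alternatives were quantile normalization, median centring, other added constants, a filter on dim probe sets, other variance models, no block, the replicate number as a block and leaving out each array, and the larger set alone was added after the data were seen.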

Additional observations from a re-analysis of the deposited data

Results flagged for a closer look

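Among the 4 CTCF arrays, 1 array stood far from the others for 2 of the 27 probe sets. CTCF array 4 had an intensity of 36.22 for SYNE1 215350_at and of 76.06 for SYNE1 244144_at, with 1.00 to 3.12 and 1.00 to 1.35 in the other CTCF arrays for these probe sets. By chance about 1 in 20 such groups is expected to stand out if the 4 arrays are alike. They are not, since CTCF array 4 is the only CTCF array of the smaller set. Empty vector array 1, of the same array set, had 21.3 and 53.8.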

How the results depend on the processing

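The count of 1017 called probe sets moved to 6 without the array set block, 2 with a constant of 1 added and 2140 with 64 added. With probe sets above the median alone, which left 27306 to test, it was 2642. It was 2567 with a variance trend and robust variances and 22 at an adjusted p of 0.01. Leaving out 1 array gave 0 to 762. The count of 1 among the 27 probe sets was 0 without the block, with a constant of 1 and at an adjusted p of 0.01. It was 2 with 64 added and 2 of 15 with probe sets above the median alone. SUN2 was the probe set added in both. Leaving out 1 array gave 0 to 1. The count of 1 among the 72 envelope genes was 0 without the block and with a constant of 1, 2 after median centring and 5 with 64 added. It was 4 of 66 with probe sets above the median alone and 3 with the variance trend. When any probe set of a gene could be called it was 4, and the share of all genes counted that way is not given here. Leaving out 1 array gave 0 to 1. The cause of these moves was not tested.

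Groups share replicate numbers 1 and 2, and deviations from the group means correlated at -0.68 and 0.70 for these numbers. The deviations of the 2 empty vector arrays mirror each other. These arrays are in different array sets, whereas CTCF arrays 1 and 2 are both in the larger set. The correlations therefore cannot show whether arrays of the same number belong together. With the replicate block in place of the array set, since both together leave no residual degrees of freedom, 0 probe sets, 0 of the 27 and 0 of the 72 genes were called, beside 6, 0 and 0 with neither. Quantile normalization and median centring gave 1200 and 1443 calls, of which 508 and 528 were higher. The log2 change of TMEM201 227617_at was 1.61 to 2.35 over its 15 alternatives, and 15 of the 27 probe sets kept their sign in every alternative. The fits without empty vector array 1, without CTCF array 4 and of the larger set alone are the same fit. The spread between 2 empty vector arrays limits all comparisons, and dim probe sets such as those of SYNE2 are limited by their signal.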
